A study of Mus musculus with 25 samples.

Results

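The DNA replication and mitosis genes are a set of 40 genes chosen by symbol, 20 that act in the S phase, when DNA is copied, and 20 that act in mitosis. Of these, 39 of the 18194 genes named on the arrays were found, 20 S-phase and 19 mitotic members, because Ccnb1 was not matched by symbol. Each gene was read from its probe set (a group of short probes for 1 transcript) with the highest mean over all 25 arrays, and 29 members had more than 1 probe set to choose from. Levels are log2 signals, so a difference of 1 is a factor of 2, and levels of different probe sets cannot be set against each other.

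The study compared engineered mouse cells with the tissues they were meant to resemble, with 1 RNA sample per array and 10 groups. Induced macrophages (iMac) came from C10 pre-B cells induced with 100 nM estradiol and grown with IL-3 and CSF-1, after lentiviral transduction with scramble shRNA, Ebf1 shRNA or Pou2af1 shRNA and puromycin selection (n = 2 arrays in each group). The estradiol and cytokines are given in the labels of the scramble group, and the others are described only as treated before the same conversion. Induced hepatocytes (iHep, n = 3 arrays, labelled independent lines) were C57BL/6J embryonic fibroblasts of embryonic stage E13.5 converted with retroviral Foxa1 and Hnf4a and expanded with hepatocyte and epidermal growth factor. Further iHeps received scramble or Cdx2 shRNA by lentivirus with puromycin (n = 4 each). Engrafted iHeps (n = 2) were GFP-positive cells sorted from the DSS-damaged colons of Rag2gammac-/- mice 12 days after transplantation. Colon samples were crypts of 8-week-old Rag2gammac-/- mice (n = 2), mice that lack most lymphocytes. Fetal liver was taken from C57BL/6J fetuses of embryonic stage E14.5 (n = 2). The labels of adult liver conflict (n = 2), naming fresh liver at 8 weeks in one field and collagenase-isolated hepatocytes at 10 weeks in another, both C57BL/6J.

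Cells copy their DNA in S phase with a helicase of the Mcm2 to Mcm7 subunits, which Orc1, Cdc6 and Cdt1 load onto origins and which Cdc45 and the GINS complex set in motion. E2F transcription factors, held back by the retinoblastoma protein in resting cells, switch on these genes and those of nucleotide synthesis. Mitotic genes are switched on later in the cycle by the MuvB complex with B-Myb and FoxM1, often through a short promoter element called the cell cycle genes homology region (CHR), and CCAAT boxes are common beside it. Hepatocytes of adult liver rarely divide, fetal liver and colon crypts hold many dividing cells, and mature macrophages have mostly left the cell cycle.

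The promoters of 5 members are printed because these genes span the levels found in the macrophages, from Mcm6, which lay near its iHep level on the probe set used, to Rrm2, Cdk1, Cdc20 and Kif11, which lay far under it. Each line gives the 250 bases before the RefSeq transcription start on build GRCm38.p6, 5′ to 3′ on the strand of the gene. Capitals mark every match, on either strand, to 3 motifs: E2F with the word TTTGGCG, the word TTTCGCG or the word TTTCCCG, then CHR with the word TTTGAA or the word TTCGAA, and the CCAAT box with that word. Matches to the E2F words on opposite strands can overlap, as at the first capitals of Mcm6.
Mcm6, chr1:128359706-128359955, minus strand: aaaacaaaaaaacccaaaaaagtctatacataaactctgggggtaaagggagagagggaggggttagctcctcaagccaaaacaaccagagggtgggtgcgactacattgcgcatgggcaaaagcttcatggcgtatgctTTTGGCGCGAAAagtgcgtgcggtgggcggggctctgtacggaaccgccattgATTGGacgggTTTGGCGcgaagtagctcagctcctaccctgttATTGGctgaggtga
Rrm2, chr12:24708004-24708253, plus strand: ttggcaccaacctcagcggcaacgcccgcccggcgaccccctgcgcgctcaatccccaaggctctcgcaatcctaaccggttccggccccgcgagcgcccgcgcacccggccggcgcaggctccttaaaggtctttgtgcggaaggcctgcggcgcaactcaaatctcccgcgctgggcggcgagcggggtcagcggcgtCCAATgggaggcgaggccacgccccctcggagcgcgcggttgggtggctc
Cdk1, chr10:69352913-69353162, minus strand: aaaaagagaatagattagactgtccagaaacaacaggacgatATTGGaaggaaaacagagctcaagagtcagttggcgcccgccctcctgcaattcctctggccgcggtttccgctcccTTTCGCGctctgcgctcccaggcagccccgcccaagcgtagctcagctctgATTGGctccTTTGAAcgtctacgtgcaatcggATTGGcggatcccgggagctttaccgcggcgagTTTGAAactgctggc
Cdc20, chr4:118437344-118437593, minus strand: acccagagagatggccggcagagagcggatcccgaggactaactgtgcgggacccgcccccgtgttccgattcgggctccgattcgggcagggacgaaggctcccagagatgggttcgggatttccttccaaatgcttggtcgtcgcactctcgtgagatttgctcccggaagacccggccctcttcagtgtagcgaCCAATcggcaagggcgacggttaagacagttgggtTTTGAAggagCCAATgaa
Kif11, chr19:37376132-37376381, plus strand: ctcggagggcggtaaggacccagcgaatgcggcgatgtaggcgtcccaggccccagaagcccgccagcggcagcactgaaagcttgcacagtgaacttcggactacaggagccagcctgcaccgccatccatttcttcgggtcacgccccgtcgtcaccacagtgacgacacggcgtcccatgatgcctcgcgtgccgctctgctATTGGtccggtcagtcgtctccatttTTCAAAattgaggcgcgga

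Mcm6 held 3 E2F matches, 2 of them overlapping, and 2 CCAAT matches in these bases, but no CHR match. Rrm2 held 1 CCAAT match and neither of the other motifs. Cdk1, the mitotic kinase, held 1 E2F match, 2 CHR and 3 CCAAT matches. Cdc20, which activates the anaphase-promoting complex, and Kif11, the spindle motor, each held 1 CHR match beside 2 and 1 CCAAT matches. RefSeq promoters were supplied for 16 S-phase and 15 mitotic members. In the window of 300 bases from 250 before to 50 after the start, E2F matched in 8 of 16 S-phase promoters (50%), 3 of 15 mitotic promoters (20%) and 5.72% of 27025 promoters of all genes. CHR matched in 4 of 16 S-phase (25%), 11 of 15 mitotic (73.3%) and 19.4% of all promoters, and CCAAT in 68.8%, 80% and 37.9%. A match is a description of letters and shows no binding.

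The quality of some arrays bears on what follows. The 3′ minus 5′ log2 signal for Actb, a measure of RNA quality, was 1.21 and 1.99 in adult liver and at most 0.49 elsewhere. For Gapdh it was 1.41 and 1.38 in engrafted arrays beside 1.05 and 1.46 in adult liver. Erythroid markers (8 genes, such as Alas2 and Klf1) averaged 11.38 to 11.62 in fetal liver and at most 6.12 in any other array, although Hba-a1 was low in fetal liver too (5.02 and 5.46). Adult liver held leukocyte markers (list mean 7.87 to 9.28) beside hepatocyte markers (14.03 and 14.04), which iHeps carried at 6.49 to 8.53. Engrafted arrays carried colon epithelium markers at 11.36 and 11.94, close under colon at 12.62 and 12.65, and their replicate 2 alone of the pair was high in fibroblast markers (9.38 against 6.17) and macrophage markers (8.02 against 5.81). Induced macrophages held macrophage markers at 10.70 to 11.44 and still held the B-lineage list at 8.24 to 9.07. Ebf1 fell from 8.31 and 8.38 with scramble shRNA to 7.41 and 7.21 with its own shRNA, by 1.04 ± 0.11 (standard error, SE; limma adjusted p = 0.00390). Pou2af1 was at 11.34 and 11.26 in the arrays labelled Pou2af1 shRNA against 11.25 and 11.06 with scramble shRNA, so its label was not borne out and those arrays are named by their label throughout. Cdx2 fell from 9.14, 9.42, 8.96 and 8.98 to 7.78, 8.02, 8.01 and 8.03 with Cdx2 shRNA, by 1.16 ± 0.12 (adjusted p = 0.00397).

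S-phase and mitotic members were both highest in fetal liver and, for the S-phase members, lowest in adult liver. The mean over the 20 S-phase members was 11.26 ± 0.29 (standard deviation, SD) in fetal liver, 10.03 ± 0.45 in iHeps, 9.72 ± 0.50 with Cdx2 shRNA, 9.66 ± 0.46 in engrafted iHeps and 9.49 ± 0.42 with scramble shRNA. It was 8.23 ± 0.11 in scramble macrophages, 8.21 ± 0.13 in colon, 8.15 ± 0.06 in macrophage arrays labelled Pou2af1 shRNA, 7.88 ± 0.05 with Ebf1 shRNA and 6.22 ± 0.21 in adult liver. The mean over the 19 mitotic members was 11.72 ± 0.04 in fetal liver, 10.62 ± 0.41 in iHeps, 10.38 ± 0.65 with Cdx2 shRNA, 10.02 ± 0.59 with scramble shRNA, 9.90 ± 0.26 in engrafted iHeps and 7.75 ± 0.11 in colon. The macrophage arrays labelled Pou2af1 shRNA (6.22 ± 0.06), scramble (6.20 ± 0.05) and Ebf1 shRNA (6.06 on both) lay beside adult liver (6.18 ± 0.42). The iHep, scramble, Cdx2 shRNA and engrafted groups overlapped each other in the S-phase mean. In the mitotic mean the engrafted arrays (9.71 and 10.08) lay under all 3 iHep lines (10.23 to 11.05) and within the range of the scramble arrays. Colon overlapped with scramble macrophages in the S-phase mean, and adult liver with all 3 macrophage groups in the mitotic mean. Fetal liver was the highest group for 18 of 20 S-phase and 19 of 19 mitotic members, and engrafted iHeps were highest for the other 2, Tyms and Rfc4. Adult liver was lowest for 18 S-phase members but for only 6 mitotic ones, and a macrophage group was lowest for the other 13.

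**Figure D1:**
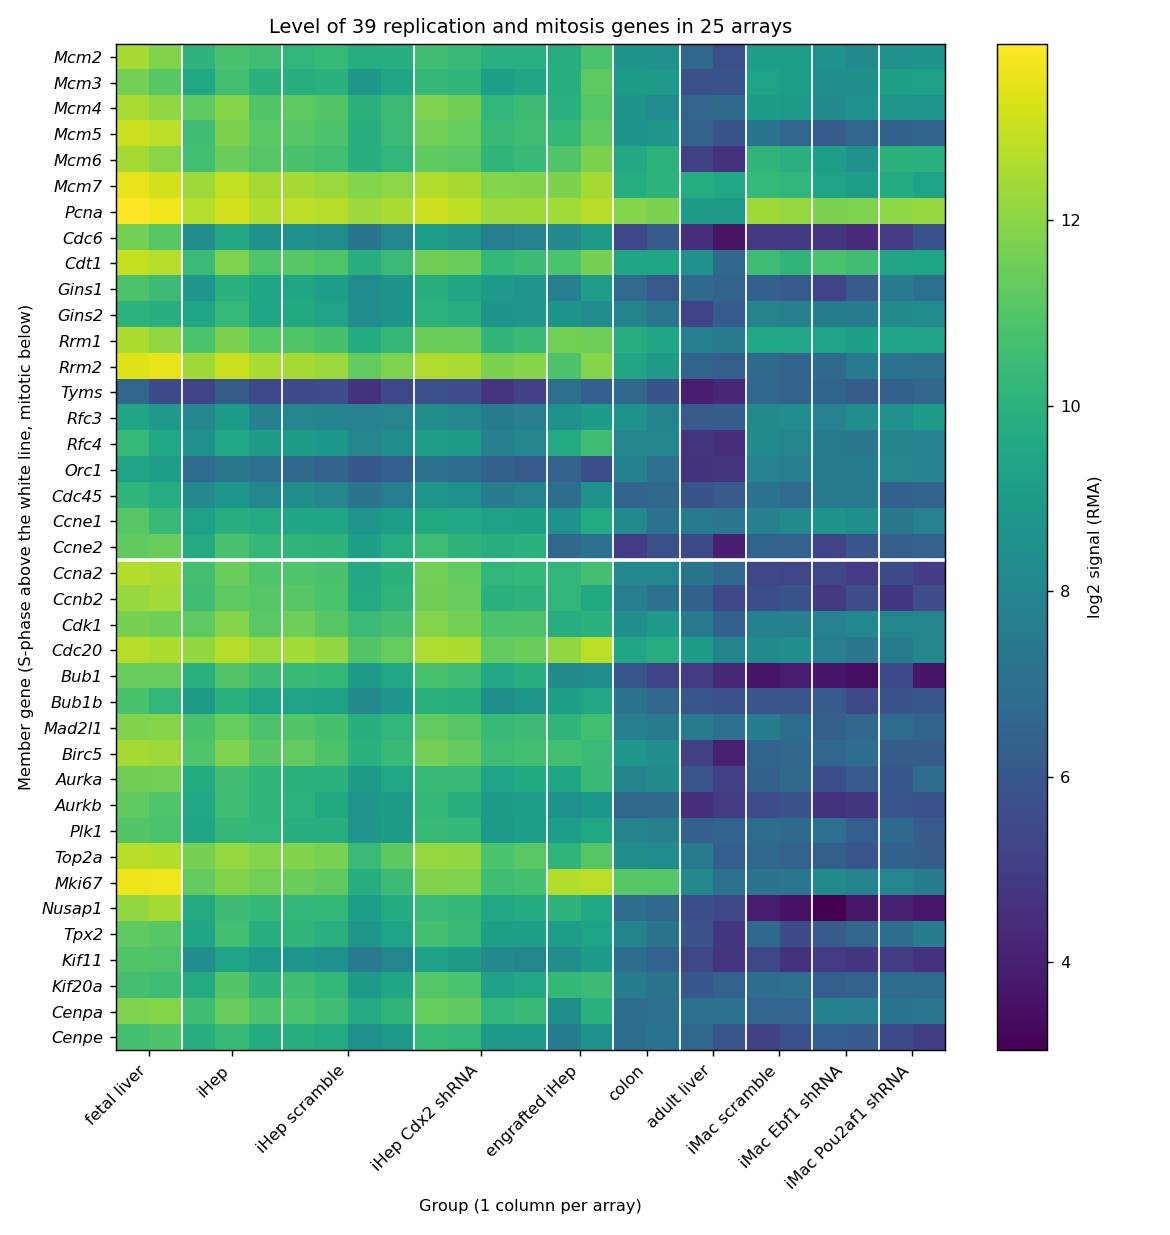
Log2 signal of the 39 members (rows, S-phase above the white line and mitotic below) in each of 25 arrays (columns, grouped). Fetal liver has the highest group mean in 18 of 20 S-phase and 19 of 19 mitotic rows, adult liver is dark above and below the line, and colours of different rows, which are different probe sets, are not to be set against each other.

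**Figure D2:**
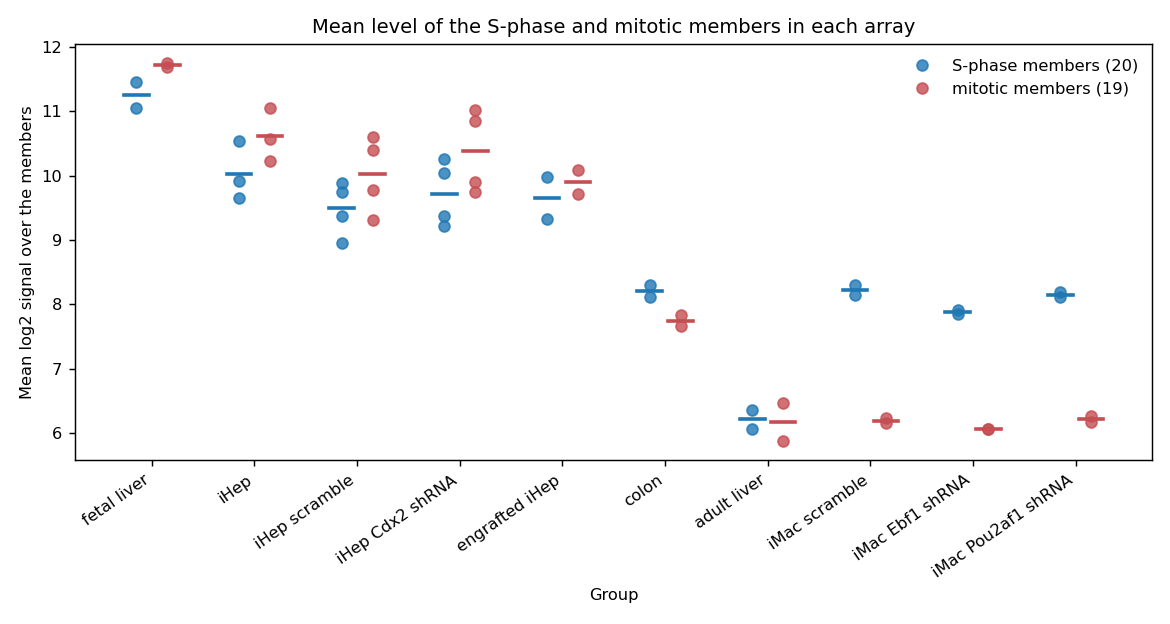
Mean log2 signal over the 20 S-phase (blue) and 19 mitotic members (red) in each array, with a bar at the group mean. Macrophage groups sit at 7.88 to 8.23 for the S-phase members, beside colon at 8.21, and at 6.06 to 6.22 for the mitotic members, beside adult liver at 6.18.

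The 9 example members show these levels array by array. Mcm6, a helicase subunit, was at 12.44 and 11.99 in fetal liver, 10.62, 11.43 and 11.05 in iHeps, 10.94 and 11.78 in engrafted iHeps, 9.59 and 10.08 in colon and 5.21 and 4.63 in adult liver. Its adult liver arrays stood far under all others, and its 2 scramble macrophage arrays (10.16 and 9.93) lay within the range of the 4 scramble iHep arrays (10.77, 10.61, 9.90 and 10.21). Pcna, the sliding clamp of the polymerases, was at 13.90 and 13.66 in fetal liver, 12.68, 13.17 and 12.65 in iHeps, 12.39 and 12.73 in engrafted iHeps, 12.34 and 12.19 in scramble macrophages, 11.90 and 11.77 in colon and 8.99 and 8.96 in adult liver. Only adult liver lay far from the others for Pcna.

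Cdc6, the licensing factor that helps load the helicase, was at 11.63 and 11.08 in fetal liver, 8.35, 9.61 and 8.61 in iHeps, 8.15 and 8.95 in engrafted iHeps, 5.35 and 6.22 in colon, 4.57 and 3.62 in adult liver and 4.91 and 4.88 in scramble macrophages. Rrm2, the regulated subunit of ribonucleotide reductase, was at 13.39 and 13.51 in fetal liver, 12.35, 13.02 and 12.54 in iHeps, 10.86 and 11.93 in engrafted iHeps, 9.43 and 8.93 in colon, 6.53 and 6.29 in adult liver and 6.82 and 6.50 in scramble macrophages. Unlike Mcm6 and Pcna, these members placed the scramble macrophages beside adult liver. Ccne1, a cyclin E that starts S phase, spanned less: 11.07 and 10.37 in fetal liver, 9.28, 9.86 and 9.67 in iHeps, 8.24 and 7.16 in colon, 7.78 and 8.24 in scramble macrophages and 7.57 and 7.31 in adult liver.

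The mitotic examples all had their highest arrays in fetal liver. Birc5, the survivin subunit of the chromosomal passenger complex, was at 12.42 and 12.33 there, at 10.93, 11.81 and 11.09 in iHeps, 10.61 and 10.44 in engrafted iHeps, 8.76 and 8.43 in colon, 6.55 and 6.62 in scramble macrophages and 5.09 and 4.0 in adult liver. Plk1, a mitotic kinase, was at 11.01 and 10.81 in fetal liver, 9.43, 10.26 and 10.20 in iHeps, 7.90 and 7.77 in colon, 6.87 and 6.81 in scramble macrophages and 6.39 and 6.52 in adult liver. Top2a, the topoisomerase that untangles sister chromatids, was at 12.75 and 12.67 in fetal liver, 11.66, 12.19 and 11.88 in iHeps, 10.17 and 11.03 in engrafted iHeps, 8.47 and 8.34 in colon, 7.54 and 6.28 in adult liver and 6.66 and 6.48 in scramble macrophages. Mki67, the proliferation antigen Ki-67, departed from the rest in the gut: it was at 12.63 and 12.79 in engrafted iHeps and 11.07 and 11.02 in colon, against 11.30, 11.86 and 11.60 in iHeps, 13.63 and 13.68 in fetal liver, 8.16 and 7.09 in adult liver and 7.19 and 7.29 in scramble macrophages.

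**Figure D3:**
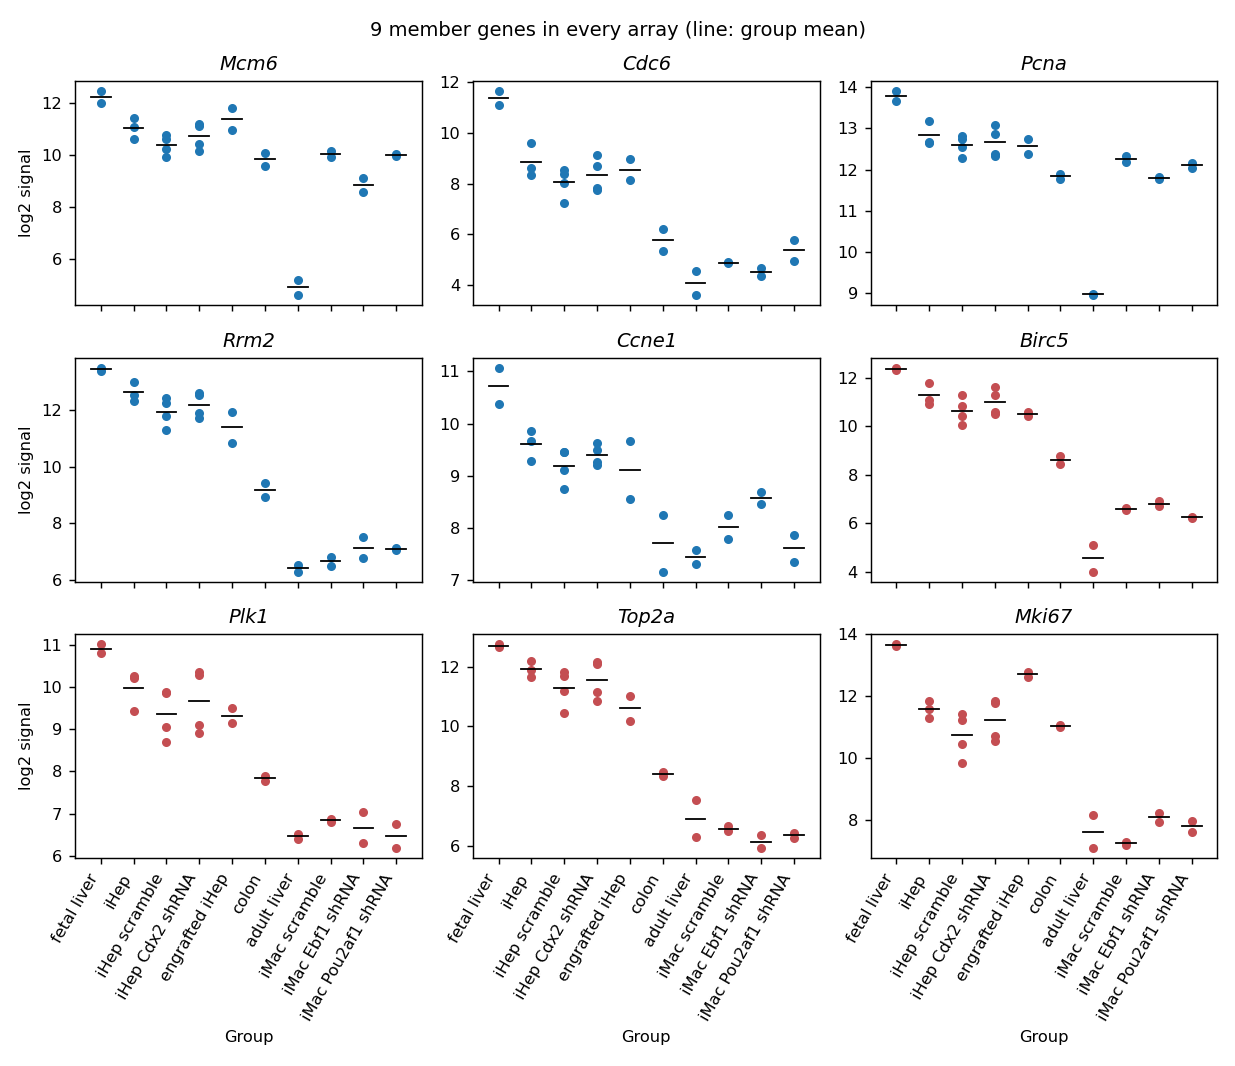
Log2 signal of 9 members in every array (points) with the group mean (line), S-phase members in blue and mitotic members in red, each panel with its own axis. Pcna and Mcm6 stay high in the 3 macrophage groups while Rrm2, Plk1, Top2a and Mki67 lie near adult liver there, and Birc5 (6.24 to 6.81) lies above adult liver (4.54) but under colon.

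Against adult liver, cultured iHeps carried every member at a higher level on the probe set used. All 20 S-phase members (median difference 3.94) and all 19 mitotic members (median 4.02) passed the test in limma (Benjamini-Hochberg adjusted p under 0.05), where 37.8% of the 15263 genes tested were higher and the median of all genes was 0.09. Birc5 differed most, from 4.54 ± 0.77 (SD, n = 2) in adult liver to 11.28 ± 0.47 (n = 3) in iHeps, by 6.73 ± 0.35 (SE, adjusted p = 4.33e-07). Rrm2 (6.23 ± 0.33), Mcm6 (6.11 ± 0.35), Bub1 (5.87 ± 0.34), the cyclin Ccne2 (5.53 ± 0.46) and the kinase Aurkb of the passenger complex (5.34 ± 0.28) followed, and Tyms, thymidylate synthase, differed least (1.51 ± 0.43). The mean of 14 members in adult liver lay under the 40th percentile of its arrays, where probe background bounds the level, so those sizes are not exact. Tyms was the only member whose call ended without 1 array, adult liver replicate 1. Its other probe sets were at −0.28, −0.23 and −0.58, the opposite direction. With probe sets left out whose names mark them as possibly shared with other transcripts, 1 of 16 mitotic members lay below 0. In bulk samples, fewer dividing cells and less RNA per cell cannot be told apart.

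Fetal liver against adult liver gave a still wider range. All 39 members passed, with medians of 4.97 for the S-phase and 5.80 for the mitotic members, against 31.1% of all genes called higher, and the 2 comparisons share the adult liver arrays, where the same 14 members lay under the 40th percentile. Birc5 was again highest at 7.83 ± 0.38, before Mcm6 (7.29 ± 0.38), Cdc6 (7.26 ± 0.51), Rrm2 (7.04 ± 0.37) and Nusap1, a spindle assembly factor (6.79 ± 0.31). The smallest was Tyms at 1.96 ± 0.47, whose call ended without fetal liver replicate 1. Among the other genes of the pathway, 32 of 33 replication and 35 of 36 mitotic factors that are no members were higher, and 17 of 22 upstream regulators. Of the cell markers, 7 of 7 tested erythroid genes were higher (median of the list 5.53) and 5 of 7 hepatocyte genes lower, and their part in the result was not tested.

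Set directly against fetal liver, iHeps carried 23 of 39 members at lower levels and none at higher ones (also 0 at unadjusted p under 0.05), where 13.1% of all genes were lower and 19.9% higher. The medians were −1.12 for the S-phase members (11 of 20 called) and −1.01 for the mitotic members (12 of 19 called). Of the S-phase members, Cdc6 was at −2.50 ± 0.47, Orc1, the largest subunit of the origin recognition complex, at −2.13 ± 0.31, Cdt1 at −1.76 ± 0.54 and Mcm5 at −1.74 ± 0.38, and the call of Cdt1 ended without fetal liver replicate 1 or 2 or iHep replicate 1 or 3. Nusap1 (−2.14 ± 0.28), Mki67 (−2.07 ± 0.30), Kif11 (−2.06 ± 0.34) and the cyclin Ccna2 (−1.59 ± 0.28) led the mitotic members, while Cdk1 (−0.15 ± 0.37), Cdc20 (−0.27 ± 0.35), Gins2 of the GINS complex (−0.25 ± 0.37) and the kinesin Kif20a (−0.34 ± 0.35) did not pass. E2f2, an activating E2F, was at −4.59 ± 0.42 and was 1 of 7 lower regulators, and the D cyclins Ccnd1 (2.96 ± 0.29) and Ccnd2 (3.38 ± 0.39) were the 2 higher ones. The erythroid markers that set fetal liver apart move with this comparison, and their part in it was not tested. Ccna2, Cdc6, Kif11, Mki67, Nusap1 and Orc1 kept their calls without any 1 array, and the 23 became 6 without fetal liver replicate 1, 10 without its replicate 2, and 13 and 15 without iHep replicates 1 and 3.

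Against colon crypts, iHeps carried 35 of 39 members at higher levels and none at lower ones (0 at unadjusted p under 0.05), with 32.3% of all genes higher. The median was 1.79 for the S-phase members (17 of 20 called) and 2.84 for the mitotic members (18 of 19 called). Ccne2 (4.91 ± 0.46), Rrm2 (3.46 ± 0.33), Cdc6 (3.07 ± 0.47) and the GINS subunit Gins1 (2.94 ± 0.46) were highest in the first (the colon mean of Ccne2, 5.34, lay under the 40th percentile, so its size is not exact), and the checkpoint kinase Bub1 (4.86 ± 0.34), the centromeric histone Cenpa (3.94 ± 0.39), the cyclin Ccnb2 (3.53 ± 0.35) and Top2a (3.50 ± 0.38) in the second. Tyms (−0.65 ± 0.43), Orc1 (−0.35 ± 0.31), the clamp loader subunit Rfc3 (0.04 ± 0.36) and Mki67 (0.54 ± 0.30) did not pass. Of the 35 calls, 30 held without any 1 array.

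Colon crypts in turn carried 31 members above adult liver and none below, against 35.9% of all genes higher. Mcm6 (4.92 ± 0.38) and Birc5 (4.05 ± 0.38) stood furthest apart, and Rfc4 (3.40 ± 0.41) and Mki67 (3.41 ± 0.33) followed. The adult liver means of 14 members, among them Mcm6, Birc5 and Rfc4, lay under the 40th percentile, so those sizes are not exact. Gins1 (−0.18 ± 0.51), Ccne1 (0.26 ± 0.46), Mcm7 (0.27 ± 0.30), Cenpa (−0.09 ± 0.43) and the checkpoint protein Mad2l1 (0.34 ± 0.28) did not pass. The median difference was 2.06 in the S-phase members and 1.38 in the mitotic members, and 22 calls held without any 1 array.

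After 12 days in the damaged colon, sorted iHeps carried 11 of 39 members at lower and 2 at higher levels than in culture, where 29.7% and 18.2% of all genes were lower and higher and the median of all genes was −0.13. The share of members called lower was thus near that of all genes, and the share called higher was under it. Ccne2 went from 9.70, 10.77 and 10.27 in culture to 6.66 and 7.15, a difference of −3.34 ± 0.46 (adjusted p = 0.000343) with no overlap of arrays. Bub1 (−2.25 ± 0.34), the kinetochore motor Cenpe (−1.89 ± 0.35), Cenpa (−1.72 ± 0.39), Cdk1 (−1.52 ± 0.37), Aurkb (−1.34 ± 0.28), Top2a (−1.31 ± 0.38), Gins2 (−1.25 ± 0.37), Rrm2 (−1.24 ± 0.33), Ccnb2 (−1.04 ± 0.35) and Orc1 (−1.0 ± 0.31) were the others. Ccne2, Bub1, Cenpe, Cenpa, Cdk1 and Aurkb kept their calls without any 1 array.

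The higher pair was Mki67 (1.13 ± 0.30) and Rfc4 (1.09 ± 0.37), and both calls ended without engrafted replicate 2, the array high in fibroblast and macrophage markers. Tyms was the 1 higher member in that fit (1.41, adjusted p = 0.0488). Rfc4 was also lost without iHep replicate 1 or 3, which left Mki67 alone. Centring every array on its median also took the 2 to 1, and left the members' medians at −0.47 (S-phase) and −0.76 (mitotic) against −0.36 and −0.64 as deposited. Mcm6 was at 0.33 ± 0.35 on the probe set used, whose name marks it as possibly shared with other transcripts, and at −2.27 on its probe set without such a mark. Rfc4, called higher at 1.09, was at −1.76 on its probe set without the mark, the opposite direction. Of the members called lower, Gins2 was at −0.16, Top2a at −0.21, Cenpa at −0.02 and Rrm2 at −2.15 on such probe sets. The 11 lower members were 7 without iHep replicate 2. Of the markers, 8 of 8 colon epithelium genes (median 5.06) and 6 of 6 crypt base genes (median 2.21) were higher in the engrafted arrays, whose Gapdh 3′ bias also differed from that of cultured iHeps (−0.09 to 0.04), and their part in the result was not tested.

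Against the colon crypt samples, the engrafted cells carried 28 members at higher levels and 1, Orc1, at a lower one (−1.36 ± 0.34), where only 7.1% of all genes were higher and 9.66% lower. Of the 19 mitotic members 17 passed, with a median of 2.19, and of the 20 S-phase members 11 were higher, with a median of 1.64. Nusap1 was at 10.11 and 9.56 in the engrafted and 6.95 and 6.70 in the crypt arrays, a difference of 3.01 ± 0.31 (adjusted p = 0.000424). Kif20a (2.96 ± 0.38), Cdc20 (2.83 ± 0.38), Mad2l1 (2.77 ± 0.28) and Cdc6 (2.77 ± 0.51) followed, and Cdk1 (1.25 ± 0.41), Cenpe (1.0 ± 0.38), Pcna (0.73 ± 0.25) and Ccne1 (1.41 ± 0.46) did not pass. The replication and mitotic factors that are no members gave 15 of 33 and 26 of 36 higher and none lower. Mki67 was higher by 1.67 ± 0.33. Without colon replicate 1 or colon replicate 2 the 28 were 13, and Orc1 was not called without colon replicate 1 or engrafted replicate 2. The other probe set of Orc1 was at 0.53, the opposite direction, and the mean of its probe sets was not called. Aurkb, Bub1, Bub1b, Ccna2, Ccnb2, Cdc20, Kif20a, Mad2l1, Mcm7, Nusap1, Rrm1 and Rrm2 held throughout. Of the markers, 2 of 6 crypt base genes were higher (median 1.20) and 2 of 8 colon epithelium genes lower (median −0.50). The list medians were 2.41 for fibroblast and −1.70 for leukocyte genes. The Gapdh 3′ bias was 1.41 and 1.38 in engrafted and 0.79 and 0.86 in colon arrays. The part of cell types and RNA quality in the result was not tested.

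Scramble shRNA macrophages were set against scramble shRNA iHeps, the 2 engineered lines with the same control vector label. All 19 mitotic members were lower, with a median of −3.50, whereas of the 20 S-phase members 11 were lower, 2 higher and 7 not called, with a median of −0.93. Among all 15624 genes tested, 36.8% were lower and 27.4% higher, with a median of −0.10. Nusap1, at 3.91 and 3.56 in macrophages against 10.24, 10.28, 9.09 and 9.74 in iHeps, was lowest at −6.11 ± 0.32 (adjusted p = 3.71e-12). Bub1 (−6.03 ± 0.45), Ccna2 (−5.00 ± 0.38) and Top2a (−4.72 ± 0.41) came next, and Plk1 differed least of the mitotic members at −2.53 ± 0.40. The means of 6 members in macrophages, Nusap1, Bub1, Ccna2, Cdc6, Cenpe and Kif11, lay under the 40th percentile of their arrays, where the background sets the size.

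S-phase members with related roles did not all have like differences. Rrm2, of nucleotide synthesis, was at −5.29 ± 0.34, while its partner subunit Rrm1 was at −0.88 ± 0.35. Mcm5 (−3.63 ± 0.39), Ccne2 (−3.29 ± 0.37), Cdc6 (−3.15 ± 0.45), Gins1 (−2.63 ± 0.42), Mcm7 (−1.91 ± 0.24) and Mcm4 (−1.73 ± 0.41) were lower. Pcna (−0.34 ± 0.21), Mcm6 (−0.32 ± 0.33), Mcm3 (−0.30 ± 0.38), Cdt1 (−0.26 ± 0.46), Rfc4 (−0.46 ± 0.37), Rfc3 (0.30 ± 0.30) and Cdc45 (−0.85 ± 0.38) did not pass. Orc1, at 7.86 and 7.71 against 6.82, 6.48, 6.02 and 6.30, was higher by 1.38 ± 0.28 (adjusted p = 0.000252), and Tyms by 1.32 ± 0.36 on a dim probe set.

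Several of these values changed with the probe set. On probe sets whose names carry no mark of sharing between transcripts, Mcm6 was at −2.09 in place of −0.32 and Rfc4 at −2.01 in place of −0.46, while Gins2 was at 0.07 in place of −1.15. Pcna was at −0.34 there, Cdt1 at −0.37, Rfc3 at 0.04 and Mcm3 at −0.69. The medians on these probe sets were −1.02 for 18 S-phase and −3.42 for 16 mitotic members, and those with arrays centred on their median were −1.05 and −3.62. Top2a and Cenpa were at −0.39 and −0.73 on such probe sets, in place of −4.72 and −3.70, with levels of 7.03 in macrophages and 7.42 in iHeps for Top2a. Of the 32 calls, 28 held without any 1 array. The macrophage and iHep arrays belong to separate experiments of different parent cells, so experiment and cell type cannot be told apart.

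**Figure D4:**
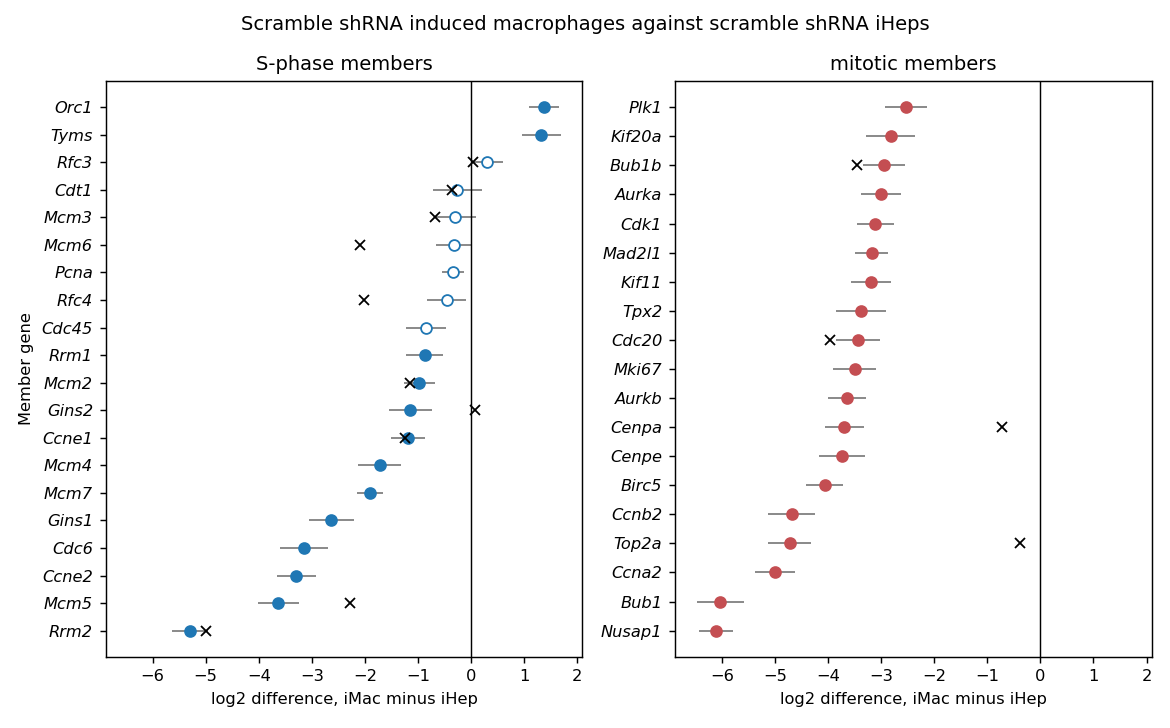
Log2 difference between scramble shRNA macrophages and scramble shRNA iHeps for each S-phase (left) and mitotic member (right), with the standard error as a bar. Filled points passed the test, open points did not, and crosses give the value of a probe set not marked as shared where it differs by over 0.05. All 19 mitotic points lie at −2.53 or lower while 7 S-phase points are open.

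Other genes of the pathway were counted from lists that hold no member. Of 36 mitotic factors that are no members 33 were lower and 2 higher (median −3.11), and of 33 replication factors 17 were lower and 2 higher (median −0.55). The kinetochore protein Nuf2 (−6.01 ± 0.43) and the cytokinesis factor Ect2 (−5.92 ± 0.33) were lowest, on probe sets under the 40th percentile in macrophages, and Cdca8, borealin of the passenger complex (1.26 ± 0.33), and the phosphatase Cdc25b (1.04 ± 0.36) were the higher mitotic pair. Of 22 regulators upstream, 10 were lower and 4 higher. E2f7, a repressive E2F, was at −4.37 ± 0.60, with a macrophage mean of 4.03 that also lay under that percentile, and Ccnd2 at −3.99 ± 0.28, the MuvB subunits Lin9 (−1.59 ± 0.26) and Lin54 (−1.72 ± 0.25) were lower, and Ccnd3 (1.59 ± 0.22), E2f4 (1.42 ± 0.16), E2f8 (0.79 ± 0.30) and Rb1 (0.69 ± 0.13) were higher. E2f1 (0.02 ± 0.31), Foxm1 (0.17 ± 0.30), Mybl2, which encodes B-Myb (−0.34 ± 0.32), and Cdk4 (0.01 ± 0.22) did not pass.

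Within the macrophages, 9 of the 34 members tested were lower and 2 higher with Ebf1 shRNA than with scramble shRNA, where 8.16% of all genes were lower and 6.21% higher. Cdc6, Ccna2, Bub1, Nusap1 and Kif11 were too dim to test. With Ebf1 shRNA the means of 8 members, these and Aurkb among them, lay under the 40th percentile of their arrays, so those sizes are not exact. Of the 6 helicase subunits 4 were lower. Mcm6 went from 10.16 and 9.93 to 9.13 and 8.56, a difference of −1.20 ± 0.20 (adjusted p = 0.0142), with Mcm7 (−1.04 ± 0.14), Mcm3 (−0.78 ± 0.12) and Mcm2 (−0.68 ± 0.16) beside it. Ccne2 (−0.93 ± 0.22), Rfc4 (−0.63 ± 0.12), Pcna (−0.47 ± 0.11), Aurkb (−0.99 ± 0.13) and Kif20a (−0.57 ± 0.11) were also lower. Cenpa rose from 6.61 on both arrays to 7.80 and 7.74, by 1.16 ± 0.09 (adjusted p = 0.00135), and Mki67 from 7.19 and 7.29 to 8.21 and 7.95, by 0.84 ± 0.16. Of 32 replication factors tested that are no members, 6 were lower and none higher (Pola1 at −1.19 ± 0.18, Prim1 at −1.03 ± 0.20, both of the primase complex). Of 28 mitotic factors tested that are no members, 3 were lower and 2 higher (median of the list −0.06), and of 21 regulators tested E2f2 alone passed (0.52 ± 0.13). Of the cell markers, 3 of 6 tested B-lineage genes were lower, among them Ebf1, the target of the shRNA itself. Rag1 of that list, too dim to test, went from 3.26 and 3.17 to 5.85 and 4.92. Of 8 macrophage genes, 4 were higher and 1 lower, and the part of these markers in the result was not tested.

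These calls rested on few arrays: the 9 lower members were 1 without scramble replicate 1, and 4 without scramble replicate 2 or Ebf1 replicate 1. The call of Mki67 ended without scramble replicate 1, scramble replicate 2 or Ebf1 replicate 1. Aurkb and Cenpa kept their calls without any 1 array, and with all 25 arrays in 1 model no member was called.

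The arrays labelled Pou2af1 shRNA differed from scramble in 3 of 34 members, where 6.8% of all genes were higher and 5.15% lower. Cenpa was higher (0.69 ± 0.09, adjusted p = 0.00927), with 7.28 and 7.32 against 6.61 on both scramble arrays. Cdt1, at 9.38 and 9.45 against 10.51 and 10.15, was lower by 0.91 on the log2 scale (SE 0.16), and Mcm7 by 0.73 (SE 0.14). None of the 3 calls survived leaving out each array. Cenpa was lost without any 1 of the 4. Cdt1 was kept only without scramble replicate 2, and Mcm7 only without replicate 1 of the labelled group. Cdc45, not called with all arrays, joined the lower members without scramble replicate 2 (−0.75). Of the replication factors that are no members 3 were higher and 1 lower, among them Mcm10 (1.20 ± 0.18) and Pold1 (−0.65 ± 0.13). Of the mitotic factors 2 were higher and 4 lower, among them the kinetochore factor Ndc80 (0.79 ± 0.11) and the cytokinesis scaffold Anln (−1.15 ± 0.16). The regulators E2f8, Ccnd1 and Ccnd2 (0.76, 0.65 and 0.52) were higher and none lower. Of 6 tested B-lineage markers 4 were higher in these arrays, and their part in the result was not tested. The comparison shares its scramble arrays with that of Ebf1 shRNA.

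The Ebf1 shRNA arrays and those labelled Pou2af1 shRNA also differed from each other, with 6 members higher in the Ebf1 group (7.1% of all genes) and 6 lower (9.31%). Cdt1 (1.29 ± 0.16), the helicase activator Cdc45 (1.10 ± 0.14), Cenpe (0.96 ± 0.22), Ccne1 (0.95 ± 0.23), Birc5 (0.57 ± 0.11) and Cenpa (0.47 ± 0.09) were the higher ones. Gins1 (−1.53 ± 0.32), Mcm6 (−1.15 ± 0.20), Aurkb (−1.14 ± 0.13), Mcm3 (−0.79 ± 0.12), Gins2 (−0.66 ± 0.11) and Kif20a (−0.48 ± 0.11) were the lower ones. Mcm6 was at 9.13 and 8.56 in the Ebf1 group and 10.03 and 9.96 in the labelled Pou2af1 group, without overlap. Of the cell markers, 5 of 6 tested B-lineage genes were lower in the Ebf1 group. The genes tested from that list include Ebf1, the target of the shRNA itself. Rag1 of that list, too dim to test, went the other way, with 5.85 and 4.92 against 3.13 and 3.01 in the labelled Pou2af1 group. Of 8 macrophage genes, 3 were higher and 2 lower, and the part of these markers in the result was not tested. Without any 1 array the calls of Cdt1, Cdc45 and Aurkb remained, and with all 25 arrays in 1 model no member was called. The higher count was 3 without Ebf1 replicate 1 or Pou2af1 replicate 2 and 2 without Ebf1 replicate 2 or Pou2af1 replicate 1, and the lower count was 3 and 1 without Pou2af1 replicates 1 and 2.

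Cdx2 shRNA in iHeps left the members within the spread of the arrays in the fit without pairing. In limma 0 of 39 members passed, and 0 passed at unadjusted p under 0.05; the lowest adjusted p was 0.517, and 0.535% of all genes were higher and 1.68% lower. The median difference was 0.28 for the S-phase and 0.36 for the mitotic members, with 36 of 39 members above 0, against a median of 0.00 for all genes. Scramble arrays differed among themselves by more than this: their mitotic means were 10.6, 10.4, 9.31 and 9.78 in replicates 1 to 4, and those of Cdx2 shRNA 11.02, 10.84, 9.74 and 9.90, so the groups overlapped.

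Arrays with the same number deviated together, so they were also compared as pairs, although scramble replicate 1 also correlated with Cdx2 replicate 2 (0.41) and scramble replicate 3 with Cdx2 replicate 4 (0.35). With the replicate number as a block, 4 mitotic members were called higher and none lower, where 1.77% of all genes were called higher and 3.79% lower. At unadjusted p under 0.05, 29 of 39 members were higher. The share of all genes at unadjusted p was not counted, so these 29 have no baseline. Ccna2 was higher by 0.66, 0.51, 0.61 and 0.25 in replicates 1 to 4, which gave 0.51 ± 0.09 (adjusted p = 0.0361). Mki67 was higher by 0.44, 0.57, 0.73 and 0.24 (0.50 ± 0.09, adjusted p = 0.0424), Cenpa by 0.53, 0.67, 0.53 and 0.23 (0.49 ± 0.09, adjusted p = 0.0402), and Bub1 by 0.43, 0.29, 0.53 and 0.31 (0.39 ± 0.07, adjusted p = 0.0407). All 4 pairs were higher for 28 of 39 members (13 S-phase and 15 mitotic) and all lower for none, while 14.6% of the 13651 genes tested were higher in all 4. The median over the members was 0.41, 0.40 and 0.38 in the first 3 pairs and 0.08 in replicate 4. Rfc4 (−0.13 ± 0.33), Rfc3 (−0.04 ± 0.18) and Tyms lay below 0 in the fit without pairing. Among the regulators in that fit, E2f2 (0.86 ± 0.15) and Ccnd3 (0.60 ± 0.11) were higher and E2f3 (−0.47 ± 0.09) lower.

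**Figure D5:**
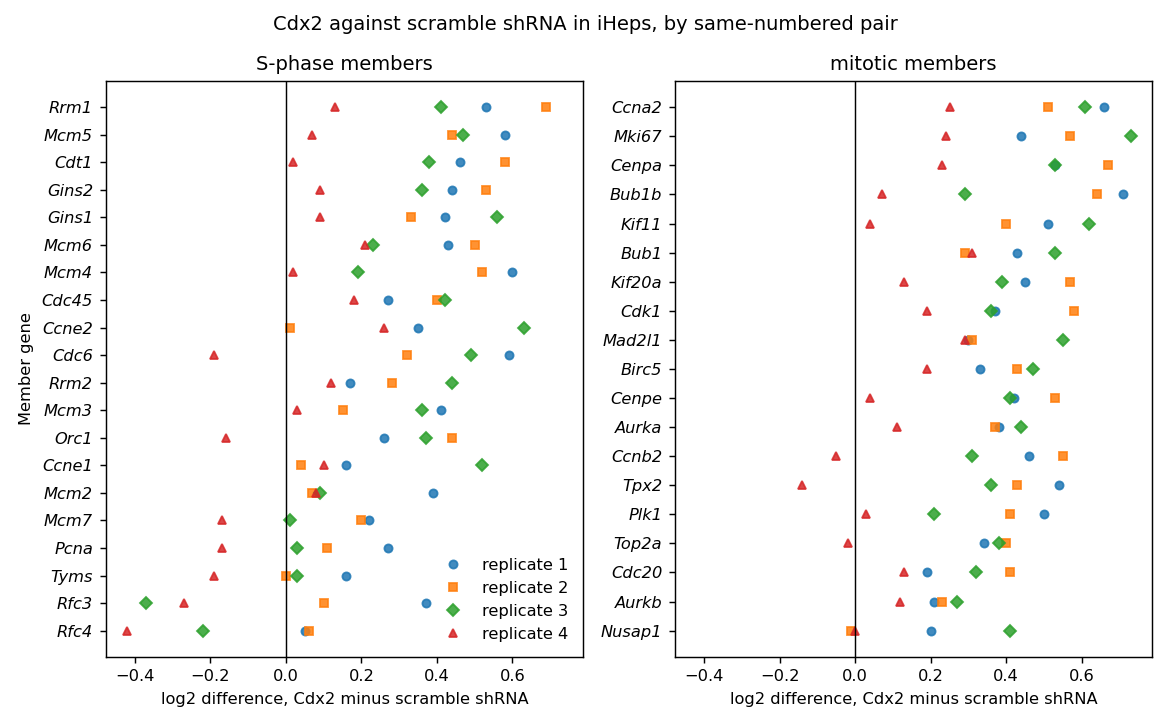
Log2 difference between Cdx2 shRNA and scramble shRNA iHeps in each of 4 same-numbered pairs (symbols) for S-phase (left) and mitotic members (right), ordered by their mean. Most points lie right of 0, and replicate 4 (triangles) has a median of 0.08 against 0.38 to 0.41 in the others.

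Scramble shRNA iHeps against the untreated iHep lines gave no called member in limma, where 0.096% of all genes were called lower and 0.435% higher. At unadjusted p under 0.05, 0 members were higher and 7 lower. The share of all genes at unadjusted p was not counted, so these 7 have no baseline. All 39 members were below 0, with medians of −0.50 for the S-phase and −0.62 for the mitotic members. Of all 18194 genes, 9889 were below 0, with a median of −0.03. Mki67 was at 11.42, 11.22, 9.83 and 10.47 with scramble shRNA and 11.30, 11.86 and 11.60 without (−0.85 ± 0.35, adjusted p = 0.307), so the arrays overlapped. Rrm1, at 10.94, 10.73, 9.73 and 10.28 against 10.84, 11.77 and 11.04, was at −0.80 ± 0.31 (adjusted p = 0.275). All 8 fibroblast markers were above 0 in this comparison (median 1.15), none of them called, and their part in it was not tested. The labels do not say whether the transduced cells came from the same lines.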

How the data were processed

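The authors deposited RMA log2 signals of Affymetrix mouse expression arrays, 1 column per sample. No source used here gives the RMA version. Deposited signals ran from 2.05 to 15.11 with column medians of 6.11 to 6.30, and per the labels each array received labelled product of 100 ng RNA. Probe sets took symbols from the platform annotation supplied here (34958 of 45101 with 1 symbol, 932 with several); of a gene's probe sets the one with the highest mean was used. Linear models were fitted with limma 3.58.1 (lmFit, eBayes; R 4.3.3) for macrophages (6 arrays, 12485 genes tested), liver, colon and iHeps (11, 15263), Cdx2 shRNA (8, 13651) and, across experiments, all 25 arrays (15624). A gene was tested if above the 40th percentile of its array (5.52 to 5.80) in at least 2 arrays. P-values were two-sided and adjusted (Benjamini-Hochberg) over all genes of a comparison, called under 0.05. The number of arrays limits the precision. Apart from the lines labelled independent, nothing says replicates came from separate cultures or animals, so p-values measure the spread between these arrays, which may be technical.

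The members, the pathway and marker lists and the motifs were chosen with earlier results of these data known. Named members were 9 examples for the roles, the up to 4 highest and lowest called members of the S-phase and of the mitotic list, called members against the median of their list, and some not called; others, such as the remaining called members, were named after their values were seen. Of the lists of pathway genes, 33 of 35 replication factors, 36 of 36 mitotic factors and 22 of 22 regulators were matched. Same-numbered arrays pair in the Cdx2 experiment, by the correlation of their deviations (0.53, 0.32, 0.58 and 0.44 over genes), not by the labels; differently numbered arrays ranged from −0.54 to 0.41, positive within numbers 1 and 2 and within 3 and 4. The fits were tested on simulated data: with 12485 genes in the Ebf1 comparison 62% of changes of 1 and 94% of changes of 2 were recovered, with 15263 genes in the engrafted against cultured iHep comparison 18% and 58%, and with 13651 genes in the Cdx2 comparison 78% and 100%. Changes of 0.5 were recovered in 10%, 0% and 42% in the same order, so small differences could be missed. Promoters were read from RefSeq windows of GRCm38.p6, and figures were drawn with matplotlib in Python. Alternatives were other filters, probe set rules, normalization, fits, a minimum change, the replicate block and each array left out.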

Additional observations from a re-analysis of the deposited data

How the results depend on the processing

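Of the counts of members and genes, 489 stayed within 1.5 times over the alternatives and 99 did not, and of the values of the 9 example members 1551 kept direction and side of the threshold, 27 gained the call, 86 lost it and 23 reversed. The cause of these shifts was not tested. For Ebf1 shRNA, labelled Pou2af1 shRNA and the difference between them, all 25 arrays in 1 model gave 0 members in either direction (432, 315 and 659 genes called, against 1794, 1492 and 2048). A minimum log2 change of 1 left 1 higher and 2 lower, 0 and 0, and 2 higher and 3 lower members (410, 359 and 574 genes). Without a filter 1120 and 923 genes were called for Ebf1 and labelled Pou2af1, and with a variance trend and robust fit 2859 and 2554. Labelled Pou2af1 arrays had 3 higher members with the 60th percentile filter, 4 with the trend and 0 (1 lower) without shared probe sets, where Ebf1 had 5 lower. Macrophages against iHeps had 1 higher member with the 60th percentile filter and 6238 genes with the minimum change. Engrafted against cultured iHeps had 1 higher member without shared probe sets, with centring and with the block. The mean of probe sets gave 0 lower members for engrafted iHeps against colon and 1 for colon against adult liver, as did leaving out shared probe sets for the latter. With 1 model, 5540 genes were called for engrafted iHeps against colon and 73 for Cdx2 shRNA, which had 76 with the minimum change. Scramble against untreated iHeps had 53 genes with quantile normalization repeated and 1 with only those groups.

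The replicate block gave 13 lower members for iHeps against fetal liver, and 4 higher members and 760 genes for Cdx2 shRNA. Only the Cdx2 numbers pair the arrays. Other same-numbered arrays correlated at −0.15 to 0.10, so they share only a number, and the block ended or moved no other count of members by over 1.5 times but the one named above. Fetal against adult liver was lowest (−0.15), and with the adult numbers crossed, an alternative chosen after seeing the data, 39 members were higher, 0 lower and 7169 genes called.

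Reversals by probe set or scaling were these: with the mean of probe sets Top2a was at 0.008 for Ebf1 and 0.0864 for Ebf1 against labelled Pou2af1, and Mcm6 at −0.38 for engrafted against cultured iHeps. Without shared probe sets Mcm6 was at 0.0026 for labelled Pou2af1 and −2.27 for engrafted iHeps, and Top2a at −0.30 for colon against adult liver and 0.0092 for scramble against untreated iHeps. Ccne1 was at −0.23 for colon against adult liver with quantile normalization repeated. Other members reversed too without shared probe sets, such as Rfc4 (1.09 to −1.76) and Cdc20 (0.09 to −1.42) for engrafted against cultured iHeps. Centring moved the median of all genes from 0.09 to 0.24 for iHeps against adult liver, 0.20 to 0.32 against colon, and 0.07 to 0.18 for fetal against adult liver.

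Without 1 array at a time, higher members ranged from 1 to 2 for Ebf1, 0 to 0 for labelled Pou2af1, 2 to 3 between them, 1 to 3 for engrafted against cultured iHeps and 13 to 33 against colon. Lower members ranged from 1 to 6, 0 to 2, 1 to 7, 7 to 13 and 0 to 1 in the same order, and 6 to 28 for iHeps against fetal liver. Genes called ranged from 507 to 822, 355 to 450 and 892 to 1301 in the 3 macrophage comparisons, 774 to 3705 for engrafted iHeps against colon, 3007 to 4518 for iHeps against fetal liver, 56 to 224 for Cdx2 and 10 to 457 for scramble against untreated iHeps. Single members crossed 0: Ccne1 from −0.28 to 0.80 for colon against adult liver; for engrafted against cultured iHeps Ccne1 from −1.06 to 0.073, Cdc6 from −0.71 to 0.091 and Mcm6 from −0.089 to 0.75; Mcm6 from −0.17 to 0.062 for labelled Pou2af1; Plk1 from −0.56 to 0.19 for Ebf1; Plk1 from −0.18 to 0.56, Rrm2 from −0.32 to 0.42 and Top2a from −0.42 to 0.0003 for Ebf1 against labelled Pou2af1; and Pcna from −0.083 to 0.17 and Top2a from −0.0039 to 0.51 for Cdx2. Signals near background bound the low members of adult liver and macrophages.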

Other observations

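Upstream regulators were counted beside the members in engrafted against cultured iHeps, where 11 of 22 were lower and 2 higher (29.7% and 18.2% of all genes). E2f7, a repressive E2F, was at −2.76 ± 0.75 (standard error), Ccnd2 at −1.66 ± 0.39 and the MuvB subunit Lin54 at −1.47 ± 0.32, while E2f2 (2.33 ± 0.42) and E2f4 (0.83 ± 0.21) were higher in limma. Among mitotic factors that are no members, 13 of 36 were lower and 4 higher: the cytokinesis scaffold Anln was at −4.24 ± 0.39 and the kinesin Kif18a at −2.90 ± 0.36, against Cdca8 at 2.36 ± 0.29.

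Between iHeps and adult liver the mitotic regulator Pttg1, securin, was the 1 mitotic factor at a lower level (−0.60 ± 0.22) among 33 higher ones, and against colon it was again the 1 lower factor (−1.33 ± 0.22). In colon against adult liver the kinetochore gene Cenpn (−2.70 ± 0.52), the replication factor Mcm10 (−1.67 ± 0.38) and thymidine kinase Tk1 (−1.35 ± 0.33) were lower, with 19 mitotic and 18 replication factors higher.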
